A study of Homo sapiens with 6 samples.

Results

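A set of 10 serpin genes that act outside blood clotting was followed in HepG2, a human liver cancer line that still makes many plasma proteins of the hepatocyte. They were taken by exact gene symbol from the count tables of 6 libraries, so that 10 of 43424 symbols are described, and all 10 passed the filter on low counts. The tested cultures, 3 libraries, were treated for 24 h with tamarixetin at 10 µM in medium with 1% serum; tamarixetin is quercetin, a plant flavonol, carrying an added O-methyl group. The 3 control libraries came from cultures labelled as having had no treatment at the same 24 h. All 6 were of 1 wild-type line grown with 10% serum before. The labels name no vehicle and do not give the serum of the control medium during those 24 h, so that compound, vehicle and serum cannot be told apart.

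Serpins are a family of proteins with 1 shared fold and an exposed reactive loop. An inhibitory serpin offers the loop to a protease as bait and, when it is cut, snaps into a new shape that traps the enzyme. Some members have lost inhibition and use the fold to carry a hormone, as the globulins that bind cortisol and thyroxine do, or to escort collagen. Clade A serpins are secreted, largely by the liver, while clade B serpins lack a classical signal peptide and work mostly inside cells.

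Libraries held 11980585 to 15454815 counts with tamarixetin and 12131365 to 16168855 in controls. Levels are given as CPM, counts scaled per 1e6 of a library size adjusted by the TMM method. The 3′ protocol gives about 1 fragment per transcript whatever its length, so CPM was not scaled by length. How evenly transcripts of different genes are captured was not tested, so comparisons of levels between genes are approximate. A gene was called when its p, adjusted by the Benjamini-Hochberg method over all 13198 genes tested in edgeR's quasi-likelihood test, was under 0.05. By that rule 43.7% of all genes tested were called, 22.4% higher and 21.3% lower. The 8 hepatocyte markers checked (ALB, AFP, APOA1, APOB, TF, TTR, HNF4A and FGB) were all present and all lower, with a sum of 8365 to 8614 CPM with tamarixetin and 14720 to 15350 CPM in controls. Markers of other cells were mixed: CD3E and KDR had 0 counts and PTPRC had 9 counts over the 6 libraries, while LYZ, listed as an immune marker, stood at 781 CPM with tamarixetin and 936 CPM in controls. The sums ran from 765.6 to 822.6 CPM with tamarixetin and 908.5 to 1011 CPM in controls for 6 immune markers, 27.0 to 29.7 CPM with tamarixetin and 31.4 to 35.3 CPM in controls for 5 fibroblast markers, and 1.01 to 1.90 CPM with tamarixetin and 0.878 to 1.42 CPM in controls for 4 endothelial markers. Mitochondrially encoded genes took 7.99% to 8.54% of the counts with tamarixetin and 10.3% to 11.1% in controls. The part of these differences in the results was not tested. In a bulk culture, fewer cells that express a gene and less RNA per cell cannot be told apart.

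Of the 10 serpins, 7 fell, 1 rose and 2 were not called. The secreted hormone carriers SERPINA7 and SERPINA6, the protease inhibitors SERPINA4 and SERPINA1, the intracellular SERPINB1, and SERPINF1 and SERPINH1 were lower with tamarixetin. SERPINA3 was the single member that rose, 2.43-fold. The members' median log2 fold change was -0.48, beside 0.00038 over all genes tested, and the groups did not overlap in 9 of the 10, where 50.5% of all genes tested do not overlap.

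**Figure D1:**
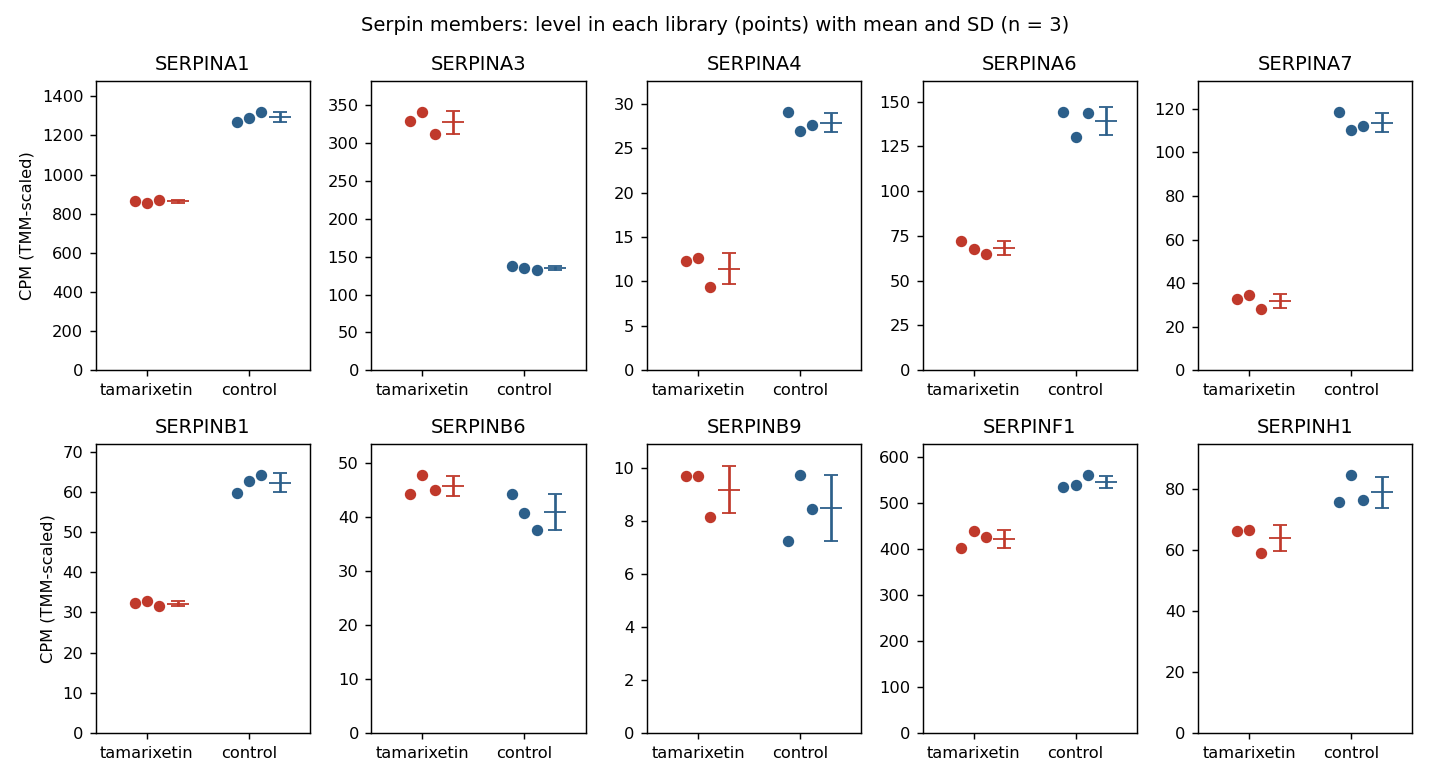
Level of each of the 10 serpins in CPM, with the 3 tamarixetin libraries (red) left of the 3 control libraries (blue); each point is a library, and the bar beside the points is the mean with the SD. SERPINA3 lies higher with tamarixetin, SERPINB6 and SERPINB9 lie close together in both groups, and the other 7 lie lower with tamarixetin.

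SERPINA1 encodes alpha-1-antitrypsin, the main plasma inhibitor of neutrophil elastase (chr14:94376747-94390635, RefSeq on GRCh38.p14, as for all genes here). It stood at 866, 855 and 868 CPM in the tamarixetin libraries and at 1270, 1287 and 1319 CPM in the controls. It was the most abundant of the members in both groups and ranked 85 among all genes by mean control level. Every tamarixetin library lay under every control, at a log2 change of -0.58 (SE 0.031, adjusted p = 9.79e-32). The neighbouring pseudogene SERPINA2 had 0 counts in every library.

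SERPINA3 encodes alpha-1-antichymotrypsin, an acute phase inhibitor of cathepsin G and mast cell chymase (chr14:94612391-94624053). Its tamarixetin libraries had 329, 341 and 312 CPM, against 137, 135 and 133 CPM in control libraries. The groups lay far apart, with the tamarixetin libraries all above the controls. The log2 fold change was 1.28 (SE 0.042, adjusted p = 1.81e-48), rank 289 from the top of the 13198 genes tested.

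SERPINA4 encodes kallistatin, an inhibitor of tissue kallikrein (chr14:94561442-94569906). It had 12.3, 12.6 and 9.40 CPM with tamarixetin and 29.1, 27.0 and 27.6 CPM in control. This was the least abundant of the secreted SERPINA genes, resting on 114 to 192 counts per tamarixetin library and 324 to 440 per control library. The groups did not overlap, and the log2 fold change was -1.28 (SE 0.110, adjusted p = 1.53e-18).

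The hormone carriers do not inhibit proteases. SERPINA6 encodes corticosteroid-binding globulin, which carries cortisol in plasma (chr14:94304248-94323336). It had 72.1, 67.8 and 64.7 CPM with tamarixetin and 144.2, 130.4 and 143.4 CPM in control, a log2 change of -1.03 (SE 0.054, adjusted p = 1.28e-32). SERPINA7 encodes thyroxine-binding globulin, the main plasma carrier of thyroid hormone, and is the X-linked member (chrX:106032435-106038727). It had 32.5, 34.6 and 28.3 CPM with tamarixetin and 118.6, 110.4 and 112.3 CPM in control. The log2 fold change was -1.83 (SE 0.064, adjusted p = 4.72e-46), the largest among the 10 members and rank 60 from the bottom of all genes tested. In both carriers all tamarixetin libraries lay under all controls.

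The intracellular serpins sit next to each other on chromosome 6. SERPINB1 encodes the inhibitor of neutrophil elastase, cathepsin G and proteinase 3 that is stored in the cytosol of myeloid cells (chr6:2832332-2841863). It had 32.3, 32.8 and 31.5 CPM with tamarixetin and 59.8, 62.8 and 64.3 CPM in control, with no overlap and a log2 change of -0.95 (SE 0.072, adjusted p = 9.97e-22). SERPINB6, which inhibits cathepsin G and trypsin-like enzymes (chr6:2948159-2971793), had 44.3, 47.8 and 44.9 CPM with tamarixetin and 44.2, 40.8 and 37.5 CPM in control.

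All 3 tamarixetin libraries of SERPINB6 lay above all 3 controls, the closest pair at 44.3 CPM with tamarixetin and 44.2 CPM in control, and the gene was not called. Its log2 fold change was 0.16 (SE 0.075, adjusted p = 0.0680), with an unadjusted 95% interval of 0.015 to 0.31. Leaving out control replicate 1 made it a call (log2 0.22, adjusted p = 0.0230), as did library sizes without TMM factors (log2 0.20, adjusted p = 0.0237), and its adjusted p ran from 0.0230 to 1 over the 17 alternatives.

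SERPINB9 encodes the inhibitor of granzyme B, by which cytotoxic lymphocytes protect themselves (chr6:2887270-2903309). It had 9.68, 9.70 and 8.17 CPM with tamarixetin and 7.26, 9.75 and 8.46 CPM in control, so that the groups overlapped. With 99 to 151 counts per tamarixetin library and 105 to 135 per control library, the log2 fold change of 0.12 had a 95% interval of -0.18 to 0.43 (SE 0.154, adjusted p = 0.547). The antisense gene SERPINB9-AS1, which overlaps it, had 0 counts in every library.

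SERPINF1 and SERPINH1 belong to neither clade. SERPINF1 encodes pigment epithelium-derived factor, a secreted antiangiogenic protein without inhibitory activity (chr17:1762060-1777565). It was the second most abundant member, at 402, 439 and 427 CPM with tamarixetin and 536, 541 and 562 CPM in control, and fell by 0.37 on the log2 scale (SE 0.036, adjusted p = 4.21e-16). SERPINH1 encodes HSP47, the collagen chaperone of the endoplasmic reticulum (chr11:75562253-75572783). It had 66.3, 66.7 and 59.1 CPM with tamarixetin and 76.0, 84.8 and 76.4 CPM in control. Both genes were without overlap between the groups. The fall of SERPINH1 was the smallest of the 7, with a log2 change of -0.30 (SE 0.061, adjusted p = 2.09e-05), and it was not called when the test required a change of more than 1.2-fold (adjusted p = 0.350).

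The order of the levels differed between the groups. With tamarixetin it ran SERPINA1, SERPINF1, SERPINA3, SERPINA6, SERPINH1, SERPINB6, SERPINB1, SERPINA7, SERPINA4 and SERPINB9. In control it ran SERPINA1, SERPINF1, SERPINA6, SERPINA3, SERPINA7, SERPINH1, SERPINB1, SERPINB6, SERPINA4 and SERPINB9. The libraries of neighbours in that order overlapped for SERPINA6 and SERPINH1, SERPINB1 and SERPINA7, and SERPINA4 and SERPINB9 with tamarixetin, and for SERPINA6 and SERPINA3 in control. Replicates varied little: the coefficient of variation ran from 0.816% for SERPINA1 to 15.5% for SERPINA4 with tamarixetin, and from 1.81% for SERPINA3 to 14.7% for SERPINB9 in control.

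**Figure D2:**
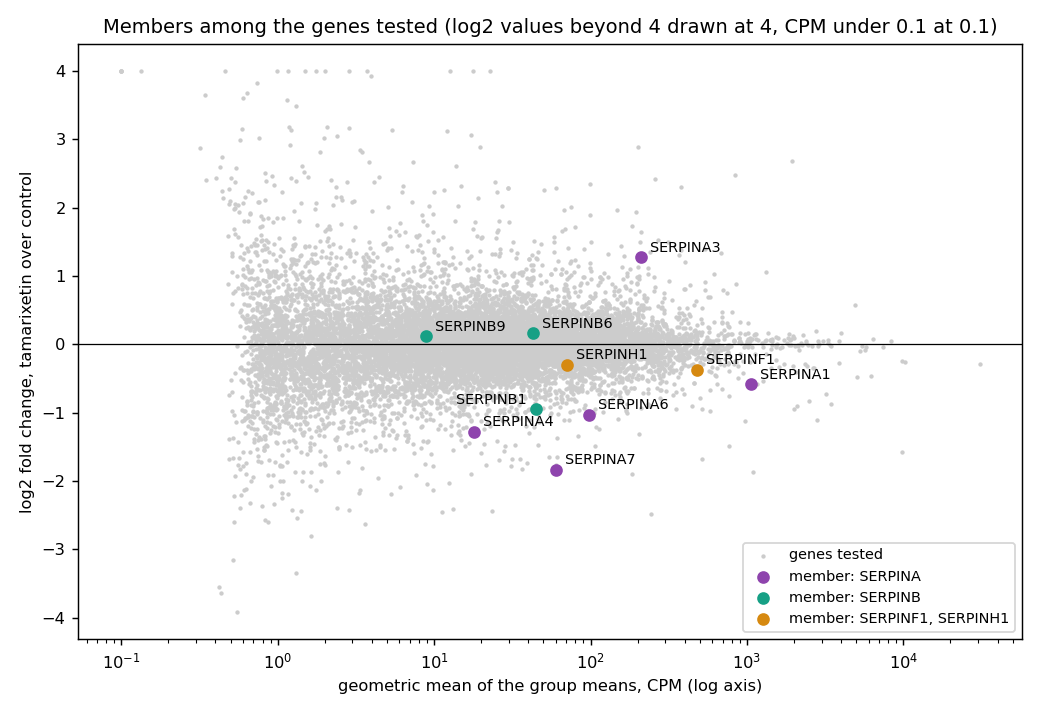
Log2 fold change, tamarixetin over control, against the geometric mean of the group means in CPM (log axis) for each of the 13198 genes tested (grey) and the 10 serpins (coloured by class). SERPINA7 lies lowest of the members at -1.83 and SERPINA3 highest at 1.28, while SERPINB6 lies at 0.16 and SERPINB9 at 0.12.

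Secreted SERPINA and intracellular SERPINB genes were set side by side. All 5 SERPINA genes were called, 4 lower and 1 higher, with log2 fold changes of -1.83 to 1.28 and a median of -1.03. Of the 3 SERPINB genes 1 was lower and 2 were not called, with log2 fold changes of -0.95 to 0.16 and a median of 0.12. Of all genes tested 43.7% were called, 22.4% higher and 21.3% lower. The 33.3% called among the SERPINB genes is under that share. As 5 and 3 genes chosen by name are no replicates, the difference of -1.15 between the medians is a description without a test. It rests on SERPINB9 and SERPINB6 lying near 0, since SERPINB1 moved about as far as SERPINA6.

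The sums over each family told the families apart less than the medians did. Summed SERPINA levels were 1301 ± 17.1 CPM with tamarixetin and 1708 ± 24.1 CPM in control (SD, n = 3 each), so that tamarixetin stood at 76.2% of control. Summed SERPINB levels were 87.0 ± 2.89 CPM with tamarixetin and 112 ± 1.58 CPM in control, 78.0% of control. In this sum SERPINB1 alone was lower, with a mean of 32.2 CPM with tamarixetin and 62.3 CPM in control. The means of SERPINB6 were 45.7 CPM with tamarixetin and 40.8 CPM in control. Those of SERPINB9 were 9.18 CPM with tamarixetin and 8.49 CPM in control, and neither gene was called. Within the SERPINA sum the make-up shifted towards SERPINA3, which gave 25.1% ± 0.852 of it with tamarixetin and 7.90% ± 0.232 in control. SERPINA1 gave 66.3% ± 1.27 with tamarixetin and 75.7% ± 0.797 in control. Without SERPINA3 the other 4 summed to 974 CPM with tamarixetin and 1573 CPM in control, 61.9% of control. Without SERPINA1 the direction of the sum turned, to 439 ± 21.9 CPM with tamarixetin and 416 ± 13.5 CPM in control, 105.5% of control, with libraries that overlapped (414.0 to 456.1 CPM with tamarixetin, 402.3 to 429.4 CPM in control). The direction of the family sum thus depended on SERPINA1, its most abundant gene. Without it, the rise of SERPINA3 outweighed the falls of SERPINA4, SERPINA6 and SERPINA7.

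The positions of these genes let neighbours be compared. A cluster of 11 serpin symbols on chromosome 14 spans 366.5 kb, and 7 of them were tested. Of the 7, 6 were lower: SERPINA10 (-0.84), SERPINA6, SERPINA1, SERPINA11 (-1.07), SERPINA4 and SERPINA5 (-0.57), in that order along the chromosome. SERPINA3, the next serpin gene after SERPINA5, was the 1 that rose. Of all genes tested 21.3% were lower and 22.4% higher. On chromosome 6, where SERPINB1, SERPINB9 and SERPINB6 lie within 139.5 kb, the first was lower and the others were not called. On chromosome 17, SERPINF2, which encodes the plasmin inhibitor alpha-2-antiplasmin, lies next to SERPINF1 and had a log2 fold change of -0.95, beside the -0.37 of SERPINF1.

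**Figure D3:**
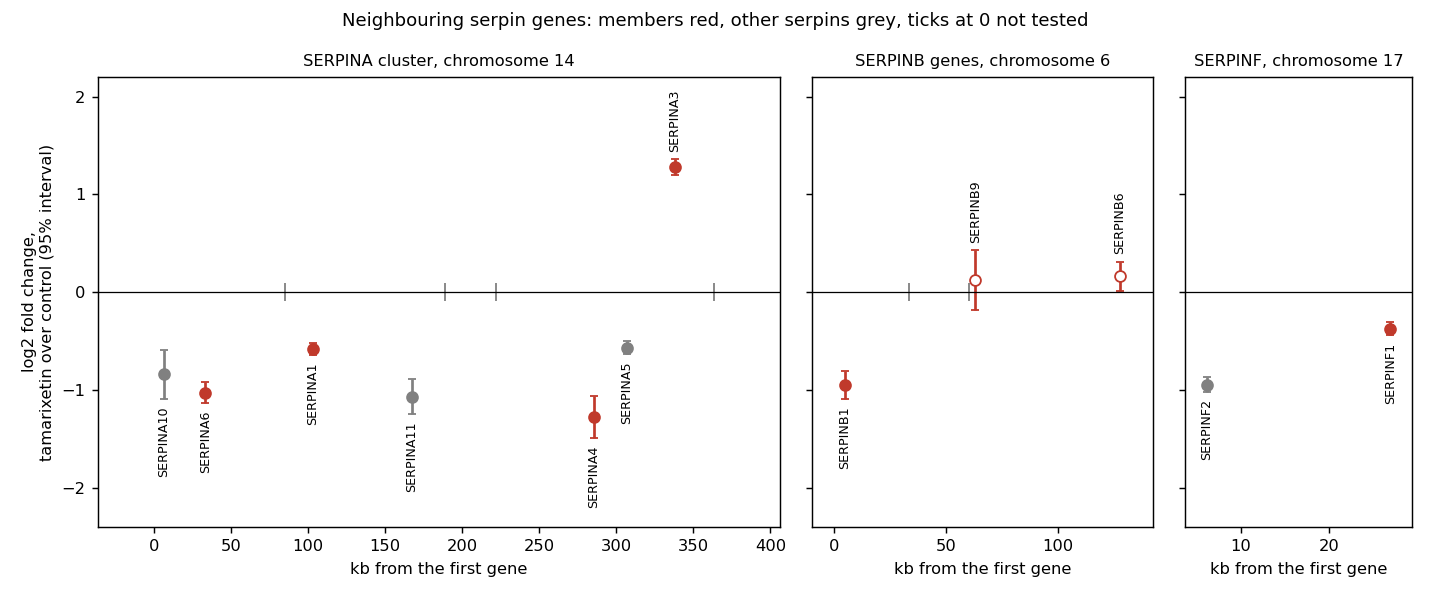
Log2 fold change, tamarixetin over control, with its 95% interval against the distance in kb from the first serpin gene of each region on chromosomes 14, 6 and 17; members are red, other serpins grey, open points were not called, and ticks at 0 mark serpin symbols not tested. On chromosome 14, SERPINA3 alone lies above 0, at 1.28, next to SERPINA5 at -0.57.

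Promoter sequences were read for the secreted SERPINA genes because those in the cluster on chromosome 14 moved in 2 directions. SERPINA7, on chromosome X, was read with them. SERPINH1 was added because its gene is a textbook target of the heat shock factor HSF1. RefSeq windows on GRCh38.p14 were matched for 9 of the 10 members (14 windows, since some genes have several starts), and SERPINF1 was not among them. In the 250 bases before each start, 5 motifs were searched on both strands: GTTAAT, searched as letters alone, GAANNTTC for heat shock factors, TTCNNNGAA for STAT factors, TGACNNNGC for NRF2 and GCGTG for the aryl hydrocarbon receptor. The letters GTTAAT were chosen after the sequences had been read. They stood in a window of each of the 4 SERPINA genes that fell, SERPINA1 (1 of its 2 windows), SERPINA4, SERPINA6 (3 times) and SERPINA7 (2 times), and in 6.23% of all 35116 windows of that length. SERPINB1 and SERPINH1, which also fell, did not hold these letters in their windows, nor did SERPINB6 and SERPINB9. Windows of SERPINA5, SERPINA10 and SERPINA11, which fell in the same cluster, were not looked at gene by gene. As the letters were picked from these sequences, their presence there is no test, and the share of all windows is no fair background. The window of SERPINA3 held none of the 5 motifs. GAANNTTC stood 71 bases before a start of SERPINH1 and in 5.78% of all windows. TTCNNNGAA was found in SERPINA6 and SERPINB1 (6.57% of all windows), TGACNNNGC in SERPINA6 and SERPINB9 (10.9%) and GCGTG in SERPINA1, SERPINB1, SERPINB6, SERPINB9 and SERPINH1 (32.2%). A match is a description of letters and not evidence of binding.

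The stretches that hold these matches are shown 5′ to 3′ on the strand of the gene, with the match in capitals, GTTAAT for the SERPINA genes and GAANNTTC for SERPINH1. For SERPINA6, SERPINA7 and SERPINA3 the longest part of the window outside GENCODE exons is given, which leaves out the third match of SERPINA6. For the others 30 bases around the match are given. Annotated exons of SERPINA1 and SERPINA4 cover all 250 bases of the windows that hold their matches. In SERPINH1 such exons cover 197 of the 250 bases. The SERPINA3 stretch is shown as well and has no capitals.
SERPINA1 (chr14:94388661-94388690, minus strand): ggggtgaccttgGTTAATattcaccagcag
SERPINA4 (chr14:94561355-94561384, plus strand): cgtagcctgtttGTTAATaattacctggtc
SERPINA6 (chr14:94323395-94323586, minus strand): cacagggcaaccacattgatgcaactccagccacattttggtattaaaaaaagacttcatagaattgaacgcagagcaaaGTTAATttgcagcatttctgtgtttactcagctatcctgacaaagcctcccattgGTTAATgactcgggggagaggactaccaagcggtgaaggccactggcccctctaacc
SERPINA7 (chrX:106038739-106038977, minus strand): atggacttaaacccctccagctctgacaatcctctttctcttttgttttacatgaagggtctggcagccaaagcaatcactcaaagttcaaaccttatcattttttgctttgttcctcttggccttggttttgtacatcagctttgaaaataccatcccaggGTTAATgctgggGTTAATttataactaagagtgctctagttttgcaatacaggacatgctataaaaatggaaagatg
SERPINA3 (chr14:94612141-94612296, plus strand): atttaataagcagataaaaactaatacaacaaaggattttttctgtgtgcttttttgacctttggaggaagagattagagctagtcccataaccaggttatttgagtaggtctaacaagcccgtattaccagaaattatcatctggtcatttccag
SERPINH1 (chr11:75562171-75562200, plus strand): ccaactttccaGAAGTTTCtcgggacgggc

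Transcription factors that drive secreted hepatocyte genes were measured in the same libraries. Of 13 listed 12 were tested, 2 were higher and 7 lower, with a median of -0.23. The 75.0% called stands beside 43.7% of all genes tested. With a minimum fold of 1.2 the counts were 0 higher and 4 lower. The lowest p-values belonged to FOXA1 (-0.85), CEBPA (-0.63), the bile acid receptor NR1H4 (-1.60) and FOXA3 (-0.81), all lower. CEBPD (0.36) and ONECUT2 (0.21) rose, and ONECUT2 was not called in 8 of the 17 alternatives.

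Other serpins were taken as a list of 25 genes, of which 11 were tested, 1 was higher and 8 lower, with a median log2 fold change of -0.57. The 81.8% called stands beside 43.7% of all genes tested. The rise was in SERPINE2 (1.71), which encodes protease nexin-1. SERPINE2 had 144 ± 6.44 CPM with tamarixetin and 44.0 ± 2.47 CPM in control (SD, n = 3 each). The falls, besides SERPINA5, SERPINA10, SERPINA11 and SERPINF2, were in the heparin cofactor SERPIND1 (-1.09), the C1 inhibitor SERPING1 (-0.61), antithrombin, SERPINC1 (-0.56), and angiotensinogen, AGT (-0.25). SERPINB8 (0.17, adjusted p = 0.770 in edgeR's test) and the neuronal serpin SERPINI1 (-0.41, adjusted p = 0.239) were not called, and SERPINI1 was called without tamarixetin replicate 2 (-0.86, adjusted p = 0.0298). SERPINB2 did not pass the filter on low counts, with 17, 14 and 7 counts in the tamarixetin libraries and 3, 1 and 1 in the controls. It was tested and called higher, which made the rises in the list 2, in 6 of the 17 alternatives: without the filter, in DESeq2, without control replicate 1, 2 or 3, and without tamarixetin replicate 3 (adjusted p from 7.995e-04 to 0.00938). Of the 14 genes not tested 11 had 0 counts in every library.

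**Figure D4:**
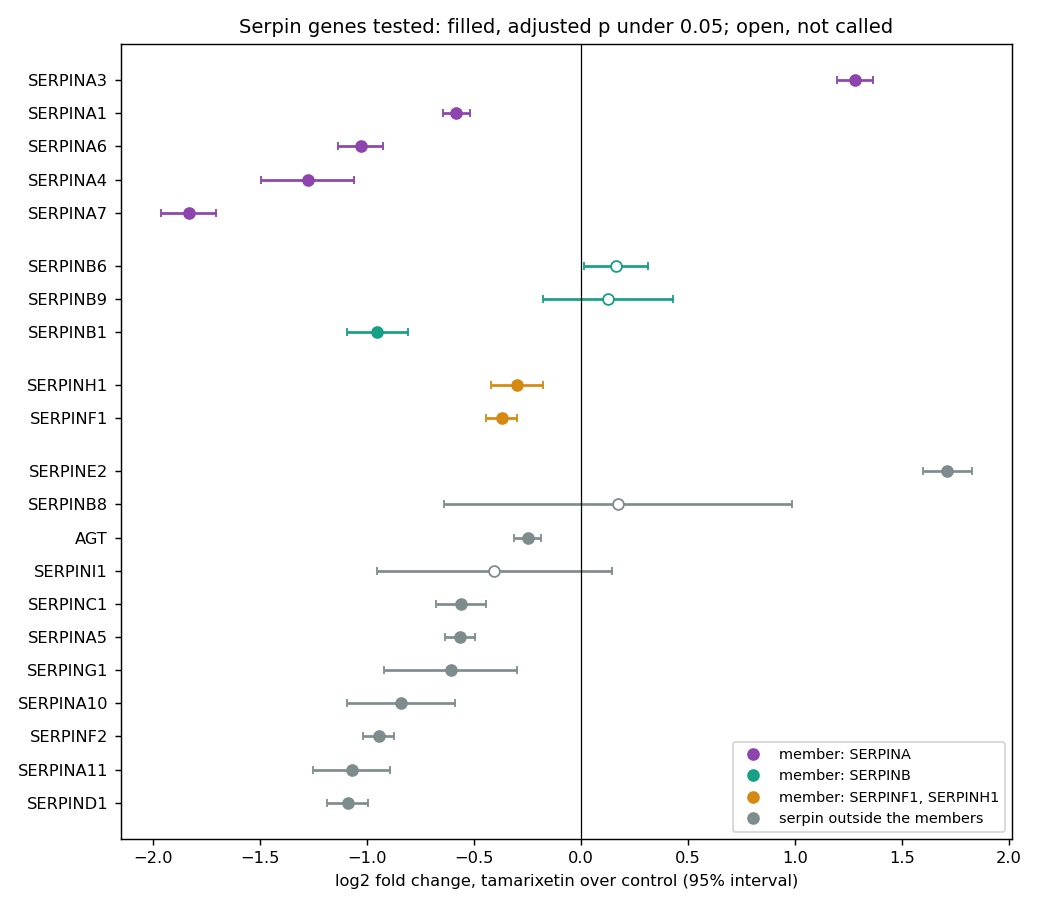
Log2 fold change, tamarixetin over control, with its 95% interval for the 21 listed serpin genes tested, grouped as SERPINA members, SERPINB members, SERPINF1 with SERPINH1, and serpins outside the members; filled points have an adjusted p under 0.05. Above 0 and called are SERPINA3 and SERPINE2, and 15 genes are called below 0.

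Acute phase genes are those the liver induces in inflammation, largely through interleukin 6, and SERPINA3 is a classical one. Of 22 others listed 15 were tested, 7 were higher and 5 lower, with a median of 0.053. Together 12 of the 15 were called, beside 43.7% of all genes tested. The counts with a minimum fold of 1.2 were 4 higher and 4 lower. The list also held the interleukin 6 receptor chains IL6R (1.246) and IL6ST (0.49), which receive that signal, and both rose. Hepcidin, HAMP (1.32), rose, while hemopexin, HPX (-1.20), fell. SERPINA3 thus shared its direction with a part of the list and moved against another part. Plasma carrier proteins are the class that the hormone carriers belong to by function. Of 10 tested 7 were lower and 1 higher, with a median of -0.61. Together 8 of the 10 were called, again beside 43.7% of all genes tested. APOH (-1.49), AFP (-1.12), transferrin, TF (-0.95), and AHSG (-0.90) had the lowest p, and AMBP (0.16) was the 1 that rose, a call that a minimum fold of 1.2 removed. The fall of the secreted SERPINA genes other than SERPINA3 thus stood beside lower levels of other secreted liver products, and their part in each other was not tested.

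Secreted serpins fold and are checked in the endoplasmic reticulum, and misfolded alpha-1-antitrypsin is a standard client of its disposal system. Of 22 listed genes of folding, export and disposal 20 were tested, 8 were lower and 1 higher, with a median of -0.11. The 45.0% called is close to the 43.7% of all genes tested, and with a minimum fold of 1.2 the count of lower genes was 1, CALR. Calreticulin, CALR (-0.58), the chaperone HSPA5 (-0.32), the coat GTPase SAR1A (-0.29) and SEL1L (-0.29), an adaptor of the disposal ligase, fell. Calnexin, CANX (0.080), was the 1 that rose, and it was not called in 9 of the 17 alternatives, with upper quartile scaling among them (adjusted p = 0.269).

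SERPINH1 was read with the genes it works beside. Of 27 collagen processing genes listed 22 were tested, 9 were lower and 5 higher, with a median of -0.10. The 63.6% called stands beside 43.7% of all genes tested. With a minimum fold of 1.2 the counts were 4 lower and 3 higher. The collagen hydroxylase subunit P4HA1 (-0.84), the lysyl hydroxylase PLOD2 (-0.53) and CRTAP (-0.45), a part of the prolyl 3-hydroxylase complex, fell, and the lysyl hydroxylase PLOD3 (0.43) rose. Of 31 collagen chain genes 18 were tested, 7 were lower and 0 were higher in edgeR's test (0 at an unadjusted p under 0.05), with a median of -0.21. The 38.9% called is under the 43.7% of all genes tested, and with a minimum fold of 1.2 the count of lower chains was 3. COL18A1 (-0.59), COL2A1 (-1.53), COL27A1 (-0.19) and COL4A5 (-0.46) had the lowest p. A single chain, COL13A1, was not among the genes tested here and was called higher without the filter on low counts, in DESeq2, without control replicate 2 and without tamarixetin replicate 3. SERPINH1 moved against most of a list made up of HSF1 and heat shock chaperones. Of 21 listed, all tested, 18 were higher and 1, HSPB1 (-0.34), was lower, with a median of 0.32. With a minimum fold of 1.2, 10 of the 21 were higher. Of the 21, 90.5% were called, beside 43.7% of all genes tested. HSPA1A (1.05), HSPH1 (0.91), HSPA8 (0.63) and HSPA1B (0.80) had the lowest p, and reads of HSPA1A and HSPA1B, near-identical copies, can be split between them. HSF1 itself, 1 of the 21 and called higher, was at 59.0 ± 2.42 CPM with tamarixetin and 47.4 ± 2.21 CPM in control (SD, n = 3 each). Its log2 fold change of 0.32 is the median of the list.

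**Figure D5:**
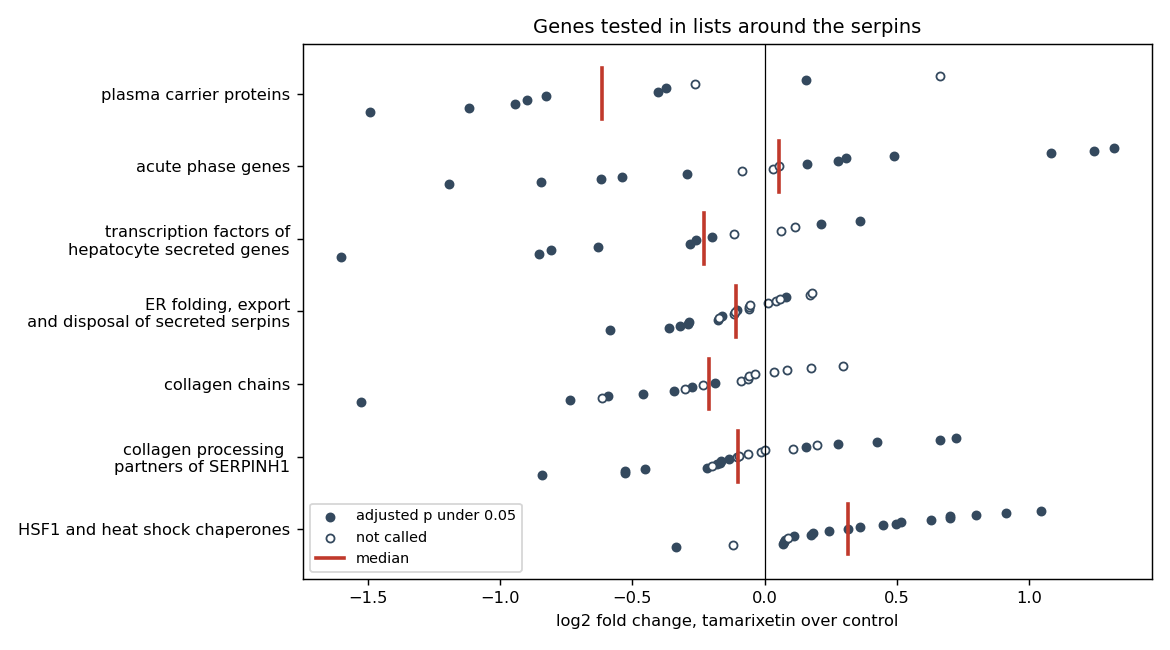
Log2 fold change, tamarixetin over control, of each gene tested in 7 lists around the serpins; filled points have an adjusted p under 0.05, open points were not called, and the red bar is the median of the list. Medians run from -0.61 for plasma carrier proteins to 0.32 for HSF1 with heat shock chaperones.

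Enzymes that the members inhibit were mostly not expressed at a testable level. Of 19 listed proteases 14 were not tested, among them 8 with 0 counts in every library. The 5 tested were lower, but CASP1 (0.31 CPM with tamarixetin, 1.30 CPM in control) and ST14 (0.48 CPM with tamarixetin, 1.38 CPM in control) passed the filter by their control level, so that the count of 5 is no result. CASP4, an inflammatory caspase, was the abundant one, at 31.6 ± 3.24 CPM with tamarixetin and 39.2 ± 0.741 CPM in control (SD, n = 3 each; log2 fold change -0.30, SE 0.082, adjusted p = 0.00121). CASP4 kept its call in 16 of the 17 alternatives. TMPRSS6 (-1.004), a liver protease, was not called without control replicate 1 (log2 -0.78, adjusted p = 0.0782). Of 7 receptors for serpins or serpin complexes 6 were tested. Called were 33.3% of the 6, under the 43.7% of all genes tested. PNPLA2 (-0.42), a receptor of pigment epithelium-derived factor and the main triglyceride lipase, fell, and VLDLR (0.99) rose, though not without tamarixetin replicate 2 (log2 0.52, adjusted p = 0.287). LRP1, which clears serpin complexes with their proteases, was at 56.4 ± 3.32 CPM with tamarixetin and 56.2 ± 0.837 CPM in control (adjusted p = 0.992, edgeR's quasi-likelihood test).

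Genes with profiles most like the largest rise and the largest fall were sought among 8628 genes of at least 10 CPM that are no serpins. Likeness was the root mean square difference of log2 CPM, each gene centred on its own mean over the 6 libraries. Nearest to SERPINA3 were ITPR3 (0.047), PLIN2 (0.048) and TESC (0.051), and nearest to SERPINA7 were APOC3 (0.075), ADH6 (0.095) and PEG10 (0.097).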

How the data were processed

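Per the labels' protocols, HepG2 RNA was turned into 3′ end libraries with Lexogen's QuantSeq FWD chemistry. The tools named are featureCounts 2.0.6, STAR 2.7.10b and fastp 0.23.1 on GRCh38, per the submitters' processing notes. Annotation release, strand setting and any molecular identifiers: not given in the sources used here. Each library has 1 table of whole-number counts by gene symbol, as deposited by the authors. From these, edgeR 4.0.16 in R 4.3.3 was run with filterByExpr, TMM scaling and a quasi-likelihood F test of tamarixetin against control, group as the only term, over 13198 genes with Benjamini-Hochberg adjustment at 0.05. SE was taken as |log2 fold change| over √F, and 95% intervals use the t distribution of that test and are not adjusted. On simulated counts (13022 genes tested, 50 changed per size) the test recovered 52% of 1.25-fold, 68% of 1.5-fold, 94% of 2-fold and 98% of 3-fold changes, with 11 false calls. Far fewer genes were changed there than the 43.7% called in the data, so these rates may not carry over.

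The 10 members and all lists were chosen with earlier results of these data known. All members were named; of each other list, the up to 4 called genes with the smallest p, and up to 3 that moved against the majority; HSF1, LRP1, SERPINB2 and the markers CD3E, KDR and PTPRC were named after their values were seen. The labels call the samples biological replicates without naming separate cultures, so p-values measure the spread between these samples. Within a group, the chi-square per gene between 2 libraries was 2.33 to 3.40, so none was taken for a copy. Coordinates, promoters and gene names come from RefSeq on GRCh38.p14 and exons from GENCODE. Alternatives covered scaling, filters, DESeq2 1.42.0, limma-voom 3.58.1, thresholds, a replicate block, leaving out each library and leaving out mitochondrially encoded genes. Some genes were taken off the lists and are not reported here.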

Additional observations from a re-analysis of the deposited data

How the results depend on the processing

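Over 17 alternatives, none of the 10 members changed direction, and 167 of 170 values kept their side of the threshold; the exceptions were SERPINB6, called with scaling by library size alone and without control replicate 1, and SERPINH1, not called with a minimum fold of 1.2. Members called higher numbered 1 and became 2 with scaling by library size alone; leaving out 1 library gave 1 to 2, through SERPINB6. The minimum fold of 1.2 left 1319 genes higher and 1241 lower of the 2954 and 2817 called. The difference between the SERPINA and SERPINB medians, -1.15, ran from -1.24 to -1.03 when 1 library was left out, -1.03 without control replicate 1. SERPINB8, with 1.34 CPM in tamarixetin and 1.21 CPM in control libraries, turned to -0.067 without control replicate 3 and reached 0.39 without control replicate 2; the cause was not tested. Same-numbered libraries did not deviate together (correlations of -0.0089, -0.041 and -0.020). These correlations cannot tell whether same-numbered cultures were handled together. With the replicate block 2943 genes were higher and 2792 lower. Scaling by library size alone moved the median of all genes to 0.035 and upper quartile factors to -0.035. The intervals of SERPINB9 and SERPINB8 include 0; the part of depth in this was not tested.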
